A study of Medicago truncatula with 21 samples.

Results

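The 150 transcripts described here were steady in level across the seed stages of R108, the wild-type line of Medicago truncatula used in the study, and were among the most abundant transcripts with that property. They were chosen from measured values. Each of the 21 libraries was first divided by its median ratio to the geometric mean of all libraries, and plastid and mitochondrial identifiers were left out. A transcript qualified when the largest of its 3 R108 stage means was at most 25% above the smallest, here called the bound. Of 44473 identifiers in the table, 761 nuclear ones met that bound at some level, and the 150 of these with the highest mean over the 9 R108 libraries were taken. Their steadiness in R108 is therefore a description, and what was compared is their behaviour in lines with an insertion in ABI4. That steadiness rests on the scaling. On deposited values or library totals 0 of the 150 met the bound in R108, and with an upper-quartile scaling 73 did.

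Seed development runs from embryo growth through the filling of storage reserves to desiccation, and most abundant seed transcripts rise or fall with that programme. ABI4 belongs to the AP2/ERF transcription factors and is known from Arabidopsis for its part in responses to abscisic acid and sugar. Transcripts that hold their level while the programme changes are the kind used as references when other transcripts are measured, and such use assumes that they hold it in the backgrounds compared.

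R108 and the line abi4-1 (NF19813) were sampled at 13 days after pollination (DAP), at 24 DAP and as mature seeds. The line abi4-2 (NF2525) was sampled as mature seeds, and each of the 7 groups has 3 libraries. Both mutants carry a Tnt1 retrotransposon insertion in the R108 background, and no chemical treatment is named for any group. Each mutant is 1 insertion line, the seeds of a replicate are pooled, and whole seeds were used, so embryo, endosperm and seed coat are mixed. In such bulk samples fewer cells of a type and less RNA per cell cannot be told apart. The identifiers are not paired with gene names and none matched the gene table used here, so neither the ABI4 transcript nor seed markers were looked up, and no member's product or sequence is given. Values below called levels are the authors' normalized counts divided by the library's factor. Fold changes are on the log2(level + 1) scale, and a transcript is called higher or lower at a limma adjusted p (Benjamini-Hochberg, over all identifiers tested) under 0.05.

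In R108 the members had a median level of 1451 over the 9 libraries, with quartiles of 1048 and 2446. The lowest stood at 843, the second highest at 12054 and the highest at 46028. The first transcript left out by the limit of 150 stood at 842, with an R108 stage ratio of 1.2. At the other edge of the rule, the 3 members closest to the bound had ratios of 1.2489, 1.2493 and 1.2497, and the 3 nearest outside it, among transcripts at least as abundant, had 1.2518, 1.2524 and 1.2524. The stage ratio is the largest divided by the smallest stage mean, and the members' median in R108 was 1.18 and the lowest 1.02. Within groups the members' libraries agreed closely: the median coefficient of variation was 5.96% at 13 DAP, 7.67% at 24 DAP and 3.53% in mature R108 seeds. The members stood highest at 13 DAP in 66 cases, at 24 DAP in 26 and in mature seeds in 58, so no single stage held most of the maxima.

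The members kept their level in most libraries of the mutants, with a wider spread around the R108 mean. In single R108 libraries, 137 to 150 members lay within the bound's ratio of their R108 mean. The abi4-1 libraries of 13 DAP held 122 to 143 such members and those of the later stages 107 to 120, and the mature abi4-2 libraries held 116 to 125. The R108 libraries had set that mean and the mutant libraries had not. For 116 members all 21 libraries lay within 1.5-fold of it.

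**Figure D1:**
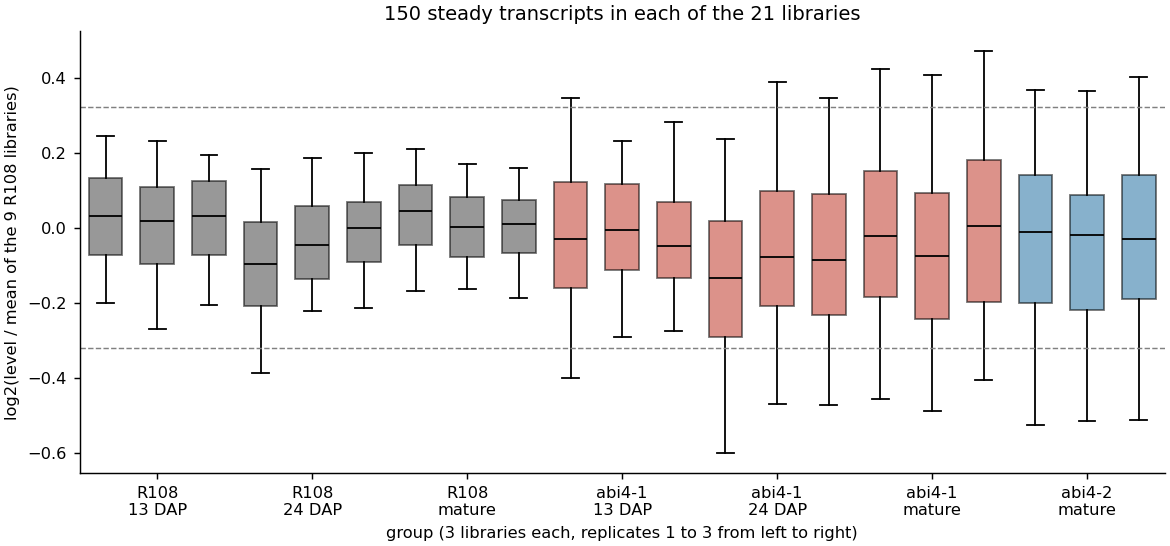
Boxes give the median and quartiles, and whiskers the 5th and 95th percentiles, of log2(level / mean of the 9 R108 libraries) over the 150 transcripts in each of the 21 libraries; dashed lines mark the bound's ratio. Library medians lie between -0.13 and 0.04, and the boxes of both mutants are wider in mature seeds than those of R108.

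Across the stages of abi4-1, 72 of the 150 members (48.0%) met the same bound. Among all 4200 nuclear transcripts at least as abundant in R108 as the lowest member, 3.79% met it in abi4-1 and, by the rule's own measure, 3.57% in R108. The 4200 include the members, and of the 4050 others 87 met it in abi4-1. Among the 21712 with an R108 mean of at least 10 the shares were 3.15% and 3.26%. The members' median stage ratio in abi4-1 was 1.26, against 3.75 for the 4200 transcripts. A ratio of up to 1.5 was found for 127 members and of up to 2 for 146. The 4 above 2 had abi4-1 ratios of 2.08, 2.23, 2.24 and 8.92, where their R108 ratios were 1.22, 1.23, 1.09 and 1.12. The same rule applied to the abi4-1 libraries returned 150 transcripts of which 69 are members, 46.0% of either list.

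**Figure D2:**
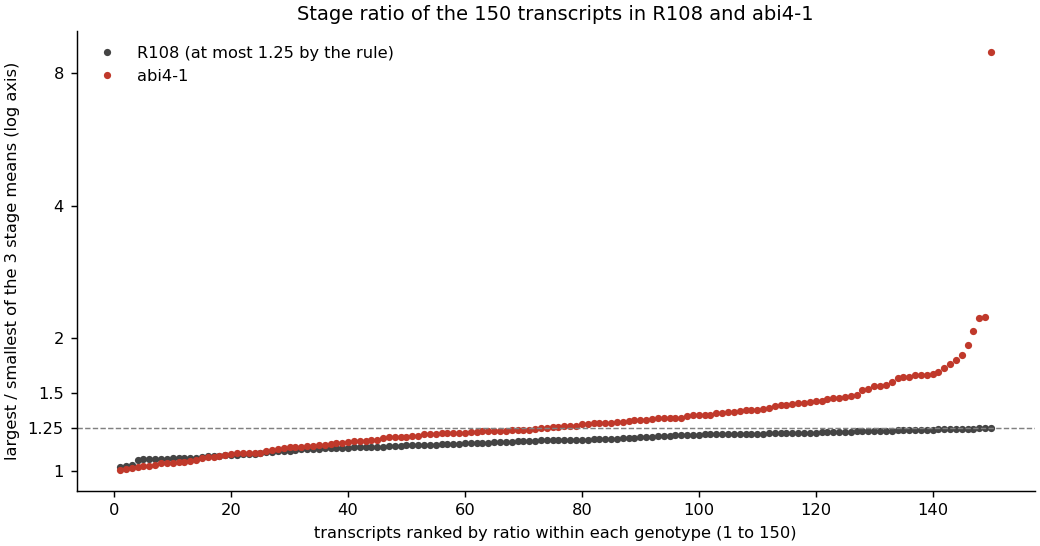
Ratio of the largest to the smallest of the 3 stage means (log axis) for the 150 transcripts, ranked separately in R108 (dark) and abi4-1 (red); the dashed line is the bound. By the rule no R108 point passes the bound, whereas 78 abi4-1 points do, 1 of them at 8.92.

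The members were also divided by how close to constancy they were in R108. Of the 25 with an R108 ratio of at most 1.1, 17 were steady in abi4-1, with a median ratio of 1.15. Of the 69 between 1.1 and 1.2, 36 were steady, with a median of 1.24. Of the 56 between 1.2 and the bound, 19 were steady, with a median of 1.33. By level, 41 of the 75 more abundant and 31 of the 75 less abundant members were steady. These splits use the R108 values of the rule and were not tested. The 78 members past the bound shared no single course. Their highest abi4-1 stage was 13 DAP in 28, 24 DAP in 16 and maturity in 34, and their lowest was 13 DAP in 17, 24 DAP in 33 and maturity in 28. The most frequent course, in 22 members, was lowest at 24 DAP and highest in mature seeds.

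When mature abi4-2 seeds were set beside the 3 R108 stages, 98 members (65.3%) met the bound over the 4 groups. The median ratio over those 4 groups was 1.23. Over all 7 groups 35 members (23.3%) met it. Both sets of groups hold the R108 stages that chose the members, so no other transcript of the 4200 could pass. The shares over the 4200 (2.33% and 0.833%) are fixed in that way by the rule. Among the 21712, less abundant transcripts could pass as well, and 371 (1.71%) and 117 (0.539%) passed in all. Nothing is read from these shares. A ratio of up to 1.5 over the 7 groups was found for 114 members and of up to 2 for 145. The 35 had R108 means from 901 to 6684.

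The steadiest members over the 7 groups were MtrunA17_Chr7g0214901 and MtrunA17_Chr3g0139821, each with a ratio of 1.11 between the largest and smallest group mean. MtrunA17_Chr7g0214901 stood at levels of 1056, 946 and 959.6 in R108 at 13 DAP, 925, 1127 and 900.2 at 24 DAP and 1092, 927 and 1001 in mature R108 seeds. In abi4-1 it stood at 1027, 939 and 910.0 at 13 DAP, 969, 1006 and 924 at 24 DAP and 948, 974 and 1036 at maturity, and in mature abi4-2 seeds at 1053, 1084 and 1054. The ranges of the mutant and R108 libraries overlapped at each stage. MtrunA17_Chr3g0139821 stood at 3833, 3564 and 3638 in R108 at 13 DAP, 3238, 3224 and 3762 at 24 DAP and 3802, 3591 and 3624 at maturity. In abi4-1 its levels were 4095, 3453 and 3449.6 at 13 DAP, 3391, 3714 and 3777 at 24 DAP and 3694, 3636 and 3658 at maturity, and in mature abi4-2 seeds 3679.8, 3761 and 3926. The groups overlapped here too, and neither transcript was called in any of the 8 tests made (the 4 comparisons of a mutant with R108, abi4-1 against abi4-2, and 3 tests of the genotype difference between stages). Over the 150, 109 members (72.7%) were called in at least 1 of the 8 tests and 41 in none. At least 1 call was made for 66.3% of identifiers tested in all 8, and for 75.5% of those at least as abundant as the lowest member.

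At 13 DAP no member was called different between abi4-1 and R108. Among all 21315 identifiers tested, 2.58% were called (1.36% higher and 1.22% lower), and 1.44% of those at least as abundant as the lowest member. The members' log2 changes ran from -0.39 to 0.44 with a median of -0.04, against 0.00 over all identifiers. At an unadjusted p under 0.05 there were 9 members, and the smallest limma adjusted p was 0.0501. With the replicate number as a block, 2 members were called higher and 0 lower, where 479 and 363 of all 21315 were. Without R108 replicate 2, 1 was called higher and 1 lower, where 536 and 366 of all 21030 were.

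At 24 DAP 5 members were higher and 14 lower in abi4-1, together 19 or 12.7% of the 150. Of all 21071 tested, 15.2% were called (9.18% higher and 6.02% lower). Of the 4191 comparably abundant transcripts tested, 17.8% were called, 325 higher and 420 lower. Changes ran from -0.80 to 0.87 on the log2 scale, and the median absolute change of the members was 0.128, against 0.159 for transcripts at least as abundant and 0.232 for all. By at least the bound's ratio changed 5 of the higher and 10 of the lower members, and 3 and 2 reached 1.5-fold. Shares of other transcripts at these ratios were not counted. When libraries were scaled by their totals, 6 were higher and 6 lower, where 1842 and 682 of all 19579 tested were. Of the 4183 comparably abundant ones, 345 were higher and 206 lower on that scale. Without 1 library the count lay between 10 and 14. It was 11 and 12 without R108 replicates 1 and 2, and 10, 12 and 10 without abi4-1 replicates 1, 2 and 3. Over all identifiers fewer were called too, against 1935 higher and 1268 lower in the main fit. There were 1523 and 683 of 20711 without R108 replicate 1, and 1170 and 807 of 20527 without abi4-1 replicate 1. With the replicate number as a block, 6 members were higher and 21 lower, where 2319 and 1794 of all 21071 were. With all 21 libraries in 1 fit 11 and 22 were, where 2418 and 2218 of 24773 were.

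In mature seeds about as large a share of the members was called as of other transcripts, and the members' median absolute change was smaller. In abi4-1, 34 were higher and 46 lower, together 80 or 53.3%. Of all 19064 tested, 46.4% were called (23.9% higher and 22.6% lower). Of the 4020 comparably abundant transcripts tested, 55.9% were called, 951 higher and 1298 lower. In abi4-2, 26 were higher and 45 lower, together 71 or 47.3%. Of all tested, 42.3% were called (22.6% higher and 19.7% lower). Of the comparably abundant, 49.0% were called, 856 higher and 1113 lower. Both comparisons use the same R108 libraries. With libraries scaled by their totals, 43 were higher and 43 lower in abi4-1, and 32 and 37 in abi4-2. Of all 19614 tested on that scale, 4993 were higher and 3921 lower in abi4-1, and 4790 and 3345 in abi4-2. Of the 4034 comparably abundant ones, 1096 were higher and 1220 lower in abi4-1, and 1009 and 1019 in abi4-2. The median absolute log2 change was 0.177 in abi4-1 and 0.156 in abi4-2, against 0.297 and 0.265 over all identifiers and 0.211 and 0.181 over those at least as abundant. Shares of other transcripts at set fold changes were not counted, so the counts that follow only describe the members. The bound's ratio was reached by 9 of the higher and 22 of the lower members in abi4-1, and by 5 and 14 in abi4-2. At 1.5-fold there were 4 and 4 in abi4-1 and 3 and 7 in abi4-2, and 1 member fell at least 2-fold in each line. The called changes in abi4-1 reached down to 0.14 on the log2 scale, and the members' median coefficient of variation was 4.28% in mature abi4-1 and 4.88% in mature abi4-2 seeds.

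**Figure D3:**
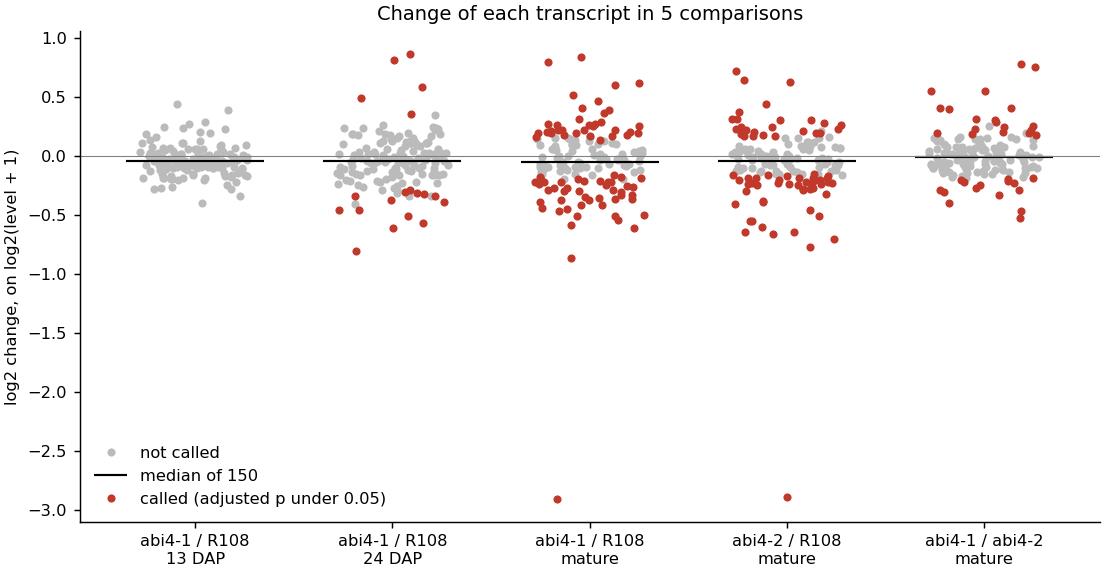
log2 change of each of the 150 transcripts (points) in 5 comparisons, on log2(level + 1); red points were called at a limma adjusted p under 0.05 and black lines are medians. No point is red at 13 DAP, most changes stay within 1 log2 unit, and 1 transcript lies at -2.91 in abi4-1 and -2.89 in abi4-2 mature seeds.

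A member that met the stage bound in abi4-1 was not thereby equal to R108. Of the 72 steady in abi4-1, 27 were called in the mature comparison and 2 at 24 DAP, and of the 78 others 53 and 17. The split and the calls use the same abi4-1 libraries, and R108 is flat by the rule. More calls among the 78 are thus partly built in, and nothing is read from that excess. The comparisons at 24 DAP and maturity use separate libraries, and 13 members (8.67%) were called in both, where 8.38% of identifiers tested in both and 11.5% of the comparably abundant were. Of the 13, 10 changed in the same direction (6.67% of the members, against 6.18% and 8.3%) and 3 in opposite directions. The 10 are 52.6% of the members' 24 DAP calls and 12.5% of their mature calls. In at least 1 of the 4 comparisons of a mutant with R108, 107 members (71.3%) were called and 43 in none. Of identifiers tested in all 4, 63.0% were called in at least 1, and 72.4% of the comparably abundant ones.

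The most abundant member, of rank 1 by R108 mean, is an example of a modest change at a high level. In R108 it stood at 49009 ± 918 at 13 DAP, 43439 ± 4291 at 24 DAP and 45637 ± 753 at maturity (SD, n = 3), and in abi4-1 at 47271 ± 1890.4, 39912 ± 3436 and 33117 ± 669. In mature seeds it fell by 0.46 ± 0.07 (SE) on the log2 scale in abi4-1 (limma adjusted p = 5.1e-05) and by 0.28 ± 0.07 in abi4-2 (limma adjusted p = 0.0037), where it stood at 37522 ± 2053. The member of rank 2 was also lower in mature seeds of both lines, at 8032.5 ± 146 in abi4-1 and 8532 ± 323 in abi4-2 against 11683 ± 459 in R108. Of the 20 most abundant members, 12 were steady across the abi4-1 stages. In mature seeds 5 of these 20 were higher and 9 lower in abi4-1, and 3 higher and 8 lower in abi4-2, beside 55.9% and 49.0% called of all transcripts at least as abundant as the lowest member.

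MtrunA17_Chr8g0382871 had the largest called rise of the members, in abi4-1 at 24 DAP. In R108 it stood at 2673, 2055 and 2541 at 13 DAP, 2067, 2401 and 2086 at 24 DAP and 2606, 2713 and 2636 at maturity. In abi4-1 it stood at 2431, 2197 and 2662 at 13 DAP, 3520.3, 4281 and 4209 at 24 DAP and 2662, 2431 and 2659.6 at maturity. The groups did not overlap at 24 DAP and overlapped at the other stages. The rise at 24 DAP was 0.87 ± 0.10 (SE) on the log2 scale, or 1.83-fold (limma adjusted p = 0.00035), and the differences at 13 DAP and maturity were 0.01 ± 0.12 and -0.04 ± 0.06, not called. In mature abi4-2 seeds it stood at 2210.0, 2241 and 2333, below the R108 libraries, and fell by 0.23 ± 0.06 (limma adjusted p = 0.0042).

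MtrunA17_Chr3g0135951 had the second largest, in mature seeds. Its R108 levels were 1748, 1265 and 1572 at 13 DAP, 1297, 1427 and 1483 at 24 DAP and 1469.9, 1461 and 1402 at maturity. In abi4-1 they were 1113, 1294 and 1063, then 1572, 1637 and 1622, then 2649.9, 2551 and 2564, with stage means of 1157, 1610.0 and 2588 and a stage ratio of 2.24. The mature R108 libraries lay below those of both mutants, abi4-2 standing at 2278, 2318 and 2189. The rise was 0.84 ± 0.05 (SE) on the log2 scale in abi4-1 (limma adjusted p = 6.8e-09) and 0.65 ± 0.05 in abi4-2 (limma adjusted p = 1.6e-07). At 13 DAP the value was lower, at -0.39 ± 0.13, and not called. The next identifier on the chromosome, also a member, rose by 0.37 ± 0.07 in mature abi4-1 seeds (limma adjusted p = 0.00025) and differed by -0.03 ± 0.07 in abi4-2, not called.

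MtrunA17_Chr4g0015841 fell most, in mature seeds of both mutants. In R108 it stood at 1345, 1351 and 1852 at 13 DAP, 1442, 1619 and 1959 at 24 DAP and 1475, 2011 and 1589 at maturity. In abi4-1 it stood at 1186, 1773 and 1413 at 13 DAP and 1798, 1730.1 and 2428 at 24 DAP, overlapping R108, and at 218, 220.3 and 229 at maturity. Mature abi4-2 seeds had 228, 243 and 206, so the mutants' mature libraries overlapped each other and lay far below R108. It fell by 2.91 ± 0.10 (SE) on the log2 scale in abi4-1, 7.50-fold, and fell by 2.89 ± 0.10 in abi4-2, 7.41-fold (limma adjusted p = 1.6e-11 in each). Of the 20 identifiers next to it on chromosome 4, 10 on either side, a window chosen after its values were seen, 7 had a mature R108 mean of at least 10. All 7 had lower means in both mutants, by 2.45- to 5.72-fold in abi4-1 and 2.25- to 8.52-fold in abi4-2. That floor was set on mature R108 seeds, so an identifier low there and higher in a mutant could not enter. The count of 7 lower is therefore partly set by the floor. The summed level of the plastid identifiers in mature seeds was 88814 ± 9979 in R108, 19232 ± 1087 in abi4-1 and 19970.3 ± 322 in abi4-2 (SD, n = 3), while at 13 and 24 DAP it was 26559 and 31084 in R108 and 26785 and 28113 in abi4-1. Whether reads are shared with a plastid copy was not tested, since no sequence was at hand.

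MtrunA17_Chr1g0200421 had the second largest fall. Its R108 levels were 1062, 757 and 944 at 13 DAP, 1167, 1079 and 1148 at 24 DAP and 1099.5, 1144 and 1091 at maturity. In abi4-1 they were 1003, 750.3 and 1048 at 13 DAP, 1412, 1447 and 1237 at 24 DAP and 585, 550.1 and 704 at maturity. At 24 DAP the abi4-1 libraries lay above those of R108 without a call (0.27 ± 0.09, limma adjusted p = 0.086), and at maturity they lay below. In mature seeds it fell by 0.87 ± 0.08 (SE) on the log2 scale in abi4-1 (limma adjusted p = 3.8e-07) and fell by 0.60 ± 0.08 in abi4-2 (limma adjusted p = 2.2e-05), where the levels were 732, 719 and 749.6.

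**Figure D4:**
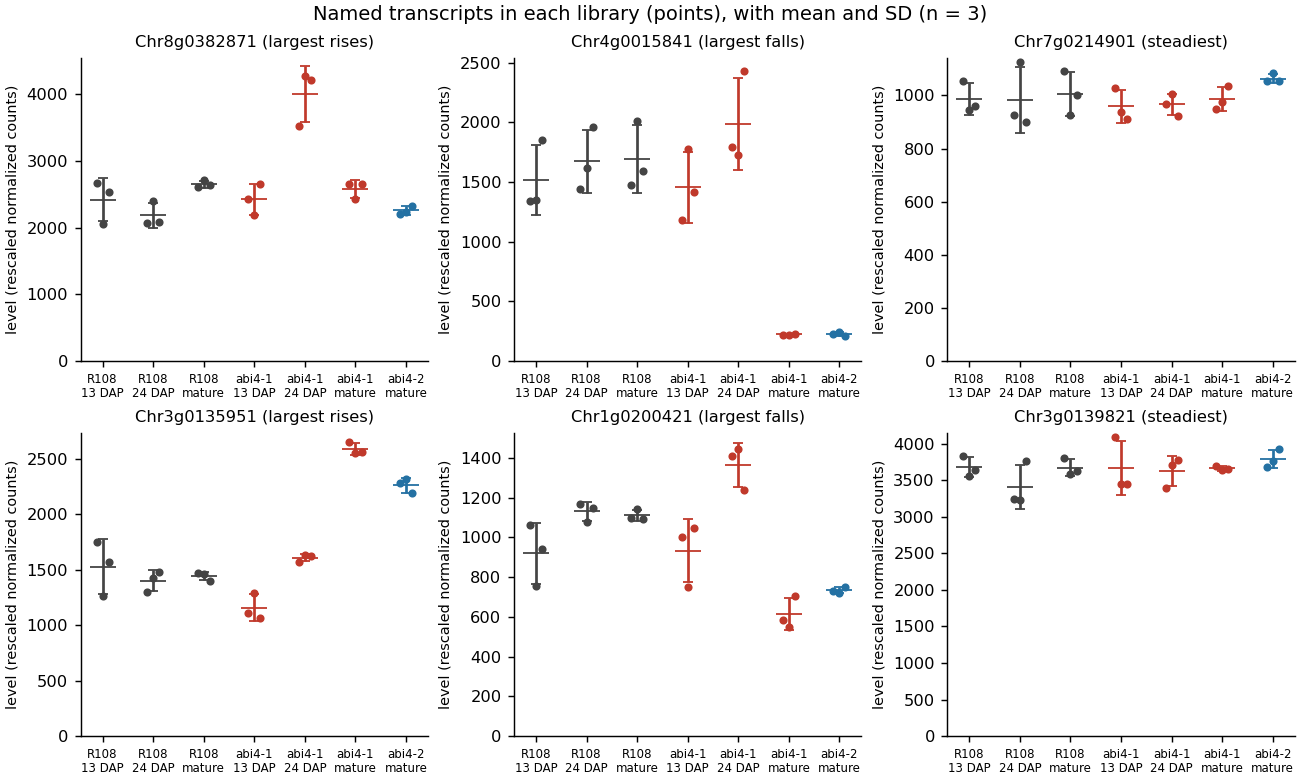
Level of the 6 named transcripts in each library (points) with the mean and SD of each group (n = 3), R108 dark, abi4-1 red and abi4-2 blue; the vertical axes start at 0. The left column shows the largest rises, the middle column the largest falls, with MtrunA17_Chr4g0015841 at 206 to 243 in mature mutant seeds, and the right column the steadiest transcripts.

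Mature seeds of the mutants were also compared with each other. The log2 difference itself holds no R108 values. Its spread, and so each call, was estimated from all 9 mature libraries, R108 included. Without R108 replicate 3 the count of called members was 26, where 1461 of all 18915 tested were higher and 1588 lower. Of the 150, 19 were higher and 15 lower in abi4-1 than in abi4-2, together 34 or 22.7%, where 18.3% of all 19064 tested (8.76% higher and 9.58% lower) and 26.5% of the comparably abundant transcripts were called. The log2 differences ran from -0.52 to 0.78, with a median absolute value of 0.0993, against 0.126 over transcripts at least as abundant and 0.181 over all identifiers. The bound's ratio was reached by 7 of the higher and 4 of the lower members, and 1.5-fold by 2, with no share of other transcripts counted at these ratios. Of the named transcripts, MtrunA17_Chr8g0382871 and MtrunA17_Chr3g0135951 were both higher in abi4-1, each by 0.19 on the log2 scale with SEs of 0.06 and 0.05 (limma adjusted p = 0.028 and 0.019). MtrunA17_Chr1g0200421 was lower in abi4-1 than in abi4-2, by -0.27 ± 0.08 (limma adjusted p = 0.029). Without 1 library the count lay between 20 and 36, with 21 without abi4-1 replicate 1 and 20 without abi4-2 replicate 1. In these 2 fits 1267 and 1438 of all 18901, and 1379 and 1312 of 18887, were higher and lower. The main fit gave 1670 and 1826 of 19064. The 36 came without abi4-1 replicate 2, where 1532 and 1513 of 18850 were called.

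Whether the abi4-1 difference itself changed between stages was tested over 12 libraries a time, with the R108 part of each contrast already held small by the rule. From 13 to 24 DAP it differed for 7 members (4.67%), 4 upward and 3 downward, where 6.54% of all 22982 tested (3.96% up, 2.58% down) and 6.44% of the comparably abundant were called. Between 24 DAP and maturity it differed for 33 (22.0%), 19 upward and 14 downward, where 20.4% of 22988 (11.3% up, 9.08% down) and 27.1% of the comparably abundant were called. Between 13 DAP and maturity it differed for 29 (19.3%), 13 upward and 16 downward. Of 23607 tested, 18.7% were called (10.5% up, 8.27% down). Of the 4200 comparably abundant, 24.0% were called, 494 upward and 515 downward. With libraries scaled by their totals the later contrasts gave 13 upward and 18 downward, and 9 and 19. Over all identifiers they gave 2138 and 1942 of 22268, and 2129 and 2244 of 24468. Over the comparably abundant they gave 538 and 488 of 4196, and 416 and 665 of 4200. With the replicate number as a block, 3 went upward and 7 downward from 13 to 24 DAP, and 22 upward and 22 downward from 13 DAP to maturity. Over all identifiers the block gave 1171 upward and 935 downward of 22982, and 2802 and 2291 of 23607. Over the comparably abundant it gave 228 and 277 of 4192, and 622 and 706 of 4200. At least 1 of the 3 was called for 49 members (32.7%), where it was for 31.9% of identifiers tested in all 3 and 38.8% of the comparably abundant. The 49 were 42 of the 78 past the bound in abi4-1 and 7 of the 72 within it. That imbalance is partly built in too, since bound and tests use the same abi4-1 libraries. For 36 members past the bound no difference in course from R108 was called. The count from 13 to 24 DAP was 2 without R108 13 DAP replicate 1, 4 without abi4-1 13 DAP replicate 1, and 3 without replicate 3 of either at 13 DAP, R108 24 DAP replicate 2 or any abi4-1 24 DAP replicate. Over all identifiers the main fit gave 910 upward and 593 downward of 22982. Without R108 13 DAP replicate 1 it was 686 and 407 of 22895. Without R108 24 DAP replicate 2 it was 1008 and 497 of 22879, and without abi4-1 24 DAP replicate 1 638 and 433 of 22729. The count from 13 DAP to maturity was 18 without R108 mature replicate 3, and 19 without replicate 1 of mature R108 or abi4-1. In these 3 fits 2115 and 1446 of all 23475, 2165 and 1462 of 23456, and 2066 and 1631 of 23413 went upward and downward. The main fit gave 2469 and 1953 of 23607.

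Steadiness between stages depends on what a library is scaled to, and the cause of that dependence was not tested. The authors' values also appear to have been scaled separately for the 3 stages. Library totals ran from 18365151 to 24032451 normalized counts. The factors that set the common scale lay close together within a stage, 1.55 to 1.58 for 13 DAP libraries, 0.552 to 0.560 for 24 DAP ones and 1.11 to 1.13 for mature ones. On the deposited values the median R108 stage ratio of the members was 3.01, and on values scaled by library totals 2.70, with 0 of the 150 within the bound. Scaled by the upper quartile it was 1.26, and 73 members were within the bound in R108, 55 in abi4-1 and 24 over the 7 groups. Steady here thus means steady relative to the median transcript detected in all libraries. The members together took 2.52 to 2.70% of a 13 DAP library, 0.948 to 1.03% of a 24 DAP one and 2.03 to 2.10% of a mature one. Comparisons within a stage do not carry a factor shared by that stage.

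**Figure D5:**
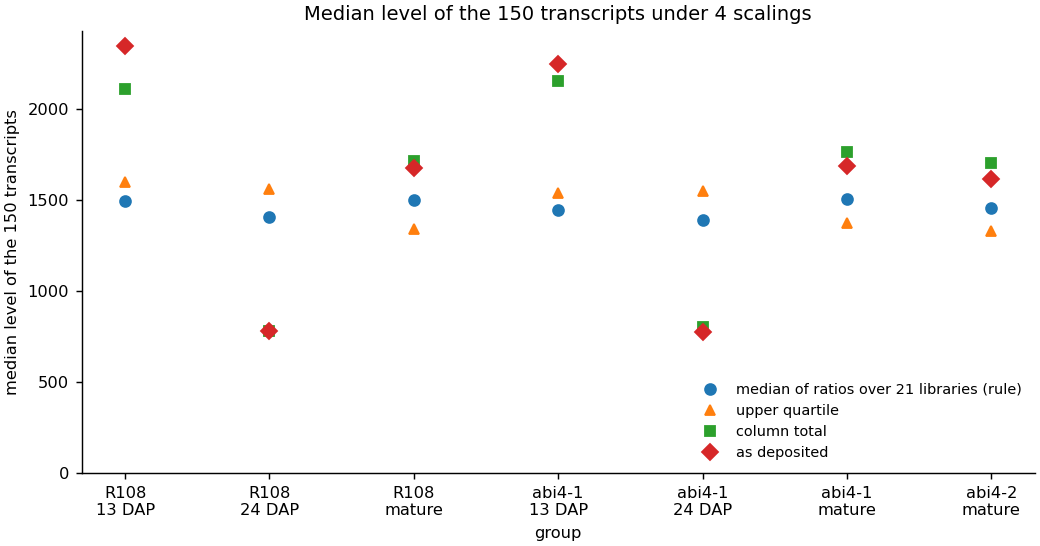
Median level of the 150 transcripts in each of the 7 groups under 4 scalings of the libraries. With the rule's median of ratios it stays between 1393 and 1509, and with deposited values it runs from 776 to 2351, the 24 DAP groups lowest in both genotypes.

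The members lie on all 8 chromosomes named in the identifiers. Chromosome 4 holds 32 of them (21.3%) and chromosome 1 holds 27 (18.0%), where comparably abundant transcripts have 18.0% and 15.9% there. In 2 cases a pair of members has consecutive identifiers, both on chromosome 3.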

How the data were processed

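Per the labels' protocols, mRNA of whole frozen seeds was enriched, primed at random and read on a BGISEQ-500. Salmon is named, without a version, in the submitters' processing notes. No source used here gives the build, annotation or normalization step. The deposited values carry the name FPKM but are normalized read counts (a signal, not per length). A separate scaling for each stage was inferred from the factors, which lie close together within a stage. Only 0.850% of values above 0 were whole within 0.001, so no count model was used. The design text names mutant lines of another gene, and the sample labels were followed. It describes replicates as seeds from different plants; if they were not, the p-values reflect technical spread alone.

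Steady means a largest-to-smallest ratio of stage means of at most 1.25. Deposited values were divided by a median-of-ratios factor over the 18214 identifiers above 0 in all 21 libraries. limma 3.58.1 (R 4.3.3, intensity trend) was fitted to log2(level + 1) over identifiers with at least 10 in at least 3 libraries of the fit, on 6 libraries at 13 or 24 DAP, 9 in mature seeds and 12 for differences between stages. The procedure was tested on simulated data. Same-numbered abi4-1 and R108 libraries deviated together at 13 DAP (correlations 0.173 to 0.318). The main fits still hold no pairing, at 13 DAP or elsewhere. Counts with the replicate number as a block are given beside them as an alternative. Named transcripts are the members with the 2 largest called rises and 2 largest called falls over the 4 comparisons of a mutant with R108, and the 2 with the smallest ratio over the 7 groups. Members and lists were chosen with earlier results of these data known. Lists of housekeeping gene families could not be used, because 0 identifiers matched a name in the table of assembly MtrunA17r5.0-ANR. Alternatives were other scalings, pseudocounts, filters, fits and bounds, and leaving out each library.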

Additional observations from a re-analysis of the deposited data

Results flagged for a closer look

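The abi4-1 difference from R108 changed between 13 and 24 DAP for 7 members (4.67%) and between 24 DAP and maturity for 33 (22.0%). Between 13 DAP and maturity it changed for 29 (19.3%), and abi4-1 differed from abi4-2 in mature seeds for 34 (22.7%). Each is a limma test of the difference itself. Over all identifiers tested the shares were 6.54%, 20.4%, 18.7% and 18.3%. Over the comparably abundant they were 6.44%, 27.1%, 24.0% and 26.5%, so nothing particular to the members is read from these counts. MtrunA17_Chr8g0382871 gained 0.86 on the log2 scale from 13 to 24 DAP, changed by -0.91 from 24 DAP to maturity, and was 0.19 higher in abi4-1 than in abi4-2. MtrunA17_Chr3g0135951 gained 0.59 from 13 to 24 DAP, 0.64 from 24 DAP to maturity and 1.24 from 13 DAP to maturity, and was 0.19 higher in abi4-1 than in abi4-2. MtrunA17_Chr4g0015841 changed by -3.15 from 24 DAP and by -2.85 from 13 DAP to maturity. MtrunA17_Chr1g0200421 changed by -1.13 and -0.88 over the same intervals and differed by -0.27 between the mutants. Gains and changes here are differences between 2 differences of abi4-1 from R108.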

How the results depend on the processing

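Of 141 alternative values for the 8 called changes of named members, 140 kept their direction and call and 0 reversed; the fall of MtrunA17_Chr8g0382871 in abi4-2 was not called with all 21 libraries in 1 fit (limma adjusted p = 0.093). At 13 DAP the count of called members was 1 with column totals, 1 with a pseudocount of 10, 3 with all 21 libraries in 1 fit, 2 with the replicate block, and 0 to 2 without single libraries, 2 being without R108 replicate 2. At 24 DAP it was 12 with column totals, 33 with all 21 libraries, 7 without the intensity trend and 10 to 14 without single libraries. In mature seeds, 39 were called in abi4-2 with all 21 libraries, and between the mutants 16 with all 21 libraries, 17 without the trend and 20 to 36 without single libraries. Differences between 13 and 24 DAP were called for 3 members with column totals, 13 with all 21 libraries, 2 without the trend and 2 to 9 without single libraries. Between 13 DAP and maturity there were 44 with the replicate block, 16 without the trend and 18 to 32 without single libraries; 18 and 19 came without R108 mature replicates 3 and 1, and 19 without abi4-1 mature replicate 1. Deposited values or column totals left 0 members steady in abi4-1, 0 over the 7 groups and 0 returned by the rule, against 127, 114 and 52 with a bound of 1.5. Without single libraries the rule returned 128 to 143 of the 150. The cause of these shifts was not tested. At 24 DAP correlations of same-numbered libraries were 0.0803 to 0.274 and at maturity -0.0402 to 0.143. With the block 27 members were called at 24 DAP, 77 and 69 in mature abi4-1 and abi4-2, and 33 between the mutants. It gave 10 between 13 and 24 DAP and 44 between 24 DAP and maturity. The counts of members in this section describe dependence on the processing only, since shares of other transcripts are not set beside them. With 3 libraries a group, the smallest called change of a member was 0.14 on the log2 scale in mature abi4-1 seeds, 0.15 in mature abi4-2 seeds and 0.29 at 24 DAP, and at 13 DAP a change of 0.44 was not called.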
